A study of Mus musculus with 14 samples.

Results

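The right end of a captured stretch of mouse chromosome 16 is described here, from just beyond the HMG-box gene Bbx to the last bin of the contact maps. Its members were all pairs of 10 kb bins at least 20 kb apart whose bins both started between 50450001 and 50860001 (build mm10), which gave 820 of the 142311 such pairs of the interval, from 42 of its 535 bins. The 420 kb were picked because contact around the bin starting at 50760001, called the split bin below, differed between the same maps that are described here. The differences are therefore given as descriptions, with no test. The split bin divides the region into a left block of 31 bins (435 pairs of bins), a right block of 11 bins that includes the split bin (45 pairs of bins), and 340 pairs of bins between the blocks.

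Capture Hi-C joins pieces of chromosome that lie close together in the nucleus, enriches the joined pieces from one chosen stretch with RNA probes, and counts them as read pairs. The compared maps were from mouse embryonic stem cells (mESC) after 2 days of auxin and from untreated mESC, as their deposited names say. Replicates were combined by the authors into 1 map per condition, so each difference compares these maps and has no replicate check. The labels describe 14 samples in 10 groups, with mESC grown in 2i plus LIF, neural precursor cells and deletion and inversion lines of the hybrid Cas/129 background, but none of them names an auxin-treated or untreated sample, and no sample had a map of its own here. Auxin is a plant hormone used in cultured cells to remove a protein that carries a degron tag; the sources used here do not say whether these cells carried one, on which protein, or whether untreated mESC carried the same alleles as auxin-treated mESC.

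Mammalian chromosomes fold into domains within which contacts are frequent, and boundaries between domains often coincide with sites bound by CTCF where cohesin-extruded loops stop. Near a boundary, contact across a bin is low compared with contact on either side, which the insulation score measures. Contacts also become rarer with distance, so a contact value is read against the mean of all pairs of bins at the same distance.

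The region is gene-poor. RefSeq (GRCm38.p6, which shares the coordinates of mm10) places 9 genes in it, of which 6 are long noncoding RNAs, 1 is a microRNA, 1 is a pseudogene and 1, Ccdc54, codes for a coiled-coil protein. Dubr (50726751 to 50732773, minus strand), whose name stands for Dppa2 upstream binding RNA, is a long noncoding RNA known from mouse myoblasts, where it takes part in silencing Dppa2. Mir6363 lies within it. The start of Dubr was 27.2 kb left of the split bin. G730013B05Rik (50526245 to 50559459, plus strand) lies in the left part of the region, Ccdc54 (50589859 to 50591154, minus strand) and 4930542D17Rik (50590503 to 50654166, plus strand) in the middle, and 1700116B05Rik (50783409 to 50784091, plus strand) in the right block. Gm32231, Gm41459 and the pseudogene Gm9575 also lie in the left block. Bbx (50191844 to 50432466) ended 17.5 kb left of the first bin, and the next protein-coding gene to the right, the ubiquitin ligase gene Cblb, started 1161 kb beyond the last bin.

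Promoters of 3 of these genes are shown. Dubr and G730013B05Rik lie at the ends of the strongest untreated contact described below. 1700116B05Rik is shown for its place in the right block, across the split bin from Dubr. Each sequence is 300 bases from RefSeq, from 250 before to 50 after the start of the gene and 5′ to 3′ on the strand of the gene, with CG in capitals.
Dubr, chr16:50732724-50733023, minus strand: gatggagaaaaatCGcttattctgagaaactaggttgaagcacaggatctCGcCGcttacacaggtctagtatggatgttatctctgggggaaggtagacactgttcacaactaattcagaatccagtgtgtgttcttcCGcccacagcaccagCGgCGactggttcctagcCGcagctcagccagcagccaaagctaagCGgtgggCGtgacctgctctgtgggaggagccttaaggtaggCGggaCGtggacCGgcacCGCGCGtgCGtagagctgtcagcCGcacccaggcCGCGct
G730013B05Rik, chr16:50525995-50526294, plus strand: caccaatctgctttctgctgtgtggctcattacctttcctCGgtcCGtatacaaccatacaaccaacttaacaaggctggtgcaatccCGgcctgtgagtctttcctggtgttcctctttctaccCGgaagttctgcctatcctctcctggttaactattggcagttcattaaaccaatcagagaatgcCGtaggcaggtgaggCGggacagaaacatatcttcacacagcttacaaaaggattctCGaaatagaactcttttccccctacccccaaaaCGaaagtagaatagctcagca
1700116B05Rik, chr16:50783159-50783458, plus strand: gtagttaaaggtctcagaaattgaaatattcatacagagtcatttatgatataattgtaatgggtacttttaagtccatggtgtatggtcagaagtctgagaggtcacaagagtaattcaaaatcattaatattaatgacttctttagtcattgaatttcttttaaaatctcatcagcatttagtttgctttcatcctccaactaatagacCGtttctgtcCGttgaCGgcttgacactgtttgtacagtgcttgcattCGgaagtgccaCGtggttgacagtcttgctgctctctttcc
The Dubr promoter holds 19 CG and is 57.3% G or C; 28.1% of the 32851 promoters in the same RefSeq table hold at least as many CG. The G730013B05Rik promoter holds 8 CG (48.7% of promoters hold at least as many) and the 1700116B05Rik promoter 5, against a median of 7. Promoter sequence was at hand for 6 of the 9 genes. The first letters of the core CTCF motif, CCANNAGNG, searched on both strands, were in 1 of these 6 windows, that of G730013B05Rik, and in 17.9% of all promoters; a match is a match of letters and not a known site. GATC, the site of the enzyme MboI that cut the libraries per the labels, occurs once in the Dubr window and not in the other 2 shown, and was in 48.0% of all promoters.

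The 820 pairs of bins held 11848 read pairs in auxin-treated mESC and 12301 in untreated mESC, which was 3.18% and 3.27% of all read pairs at least 20 kb apart of the interval. A single pair of bins held a median of 11 read pairs in each map, and at most 89 in auxin-treated and 105 in untreated mESC. Single pairs of bins are therefore noisy, and sums over blocks are given, with 95% intervals that cover counting error only.

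Contact between the 2 blocks was higher in auxin-treated than in untreated mESC, while contact inside each block was close to equal. Contact over its expected value, the mean at the same distances in the same map, was 0.826 between the blocks in auxin-treated mESC (0.784 to 0.883; 3176 read pairs) and 0.599 in untreated mESC (0.559 to 0.665; 2434 read pairs). That is a log2 difference of 0.46 (0.34 to 0.59). With the values as deposited, both maps thus had less contact across the split bin than the mean at these distances, and the shortfall was larger in untreated mESC. With the maps balanced again to equal sums per bin, contact between the blocks was 1.12 of expected in auxin-treated mESC and 0.842 in untreated mESC. The shortfall of auxin-treated mESC against the mean of its map thus depends on the balancing. Balancing again also raised contact inside the left and the right block, to 1.16 and 1.52 in auxin-treated and 1.23 and 1.65 in untreated mESC. Contact between the blocks was then still below that inside either block in both maps. In auxin-treated mESC it was only slightly below that inside the left block (1.12 and 1.16). No interval was computed for these values, so a shortfall in auxin-treated mESC is not established after balancing again. As deposited, the values within the left block were 1.00 and 1.04 (log2 difference -0.05, -0.12 to 0.02), and within the right block 0.965 and 0.909 (0.09, -0.04 to 0.22), in auxin-treated and untreated mESC. Over all 820 pairs of bins the values were 0.945 in auxin-treated and 0.896 in untreated mESC, a log2 difference of 0.08 (0.02 to 0.13). Other stretches of 42 bins, taken end to end across the rest of the interval, differed by -0.09 to 0.09, so the region as a whole did not lie outside the range of the rest.

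**Figure D1:**
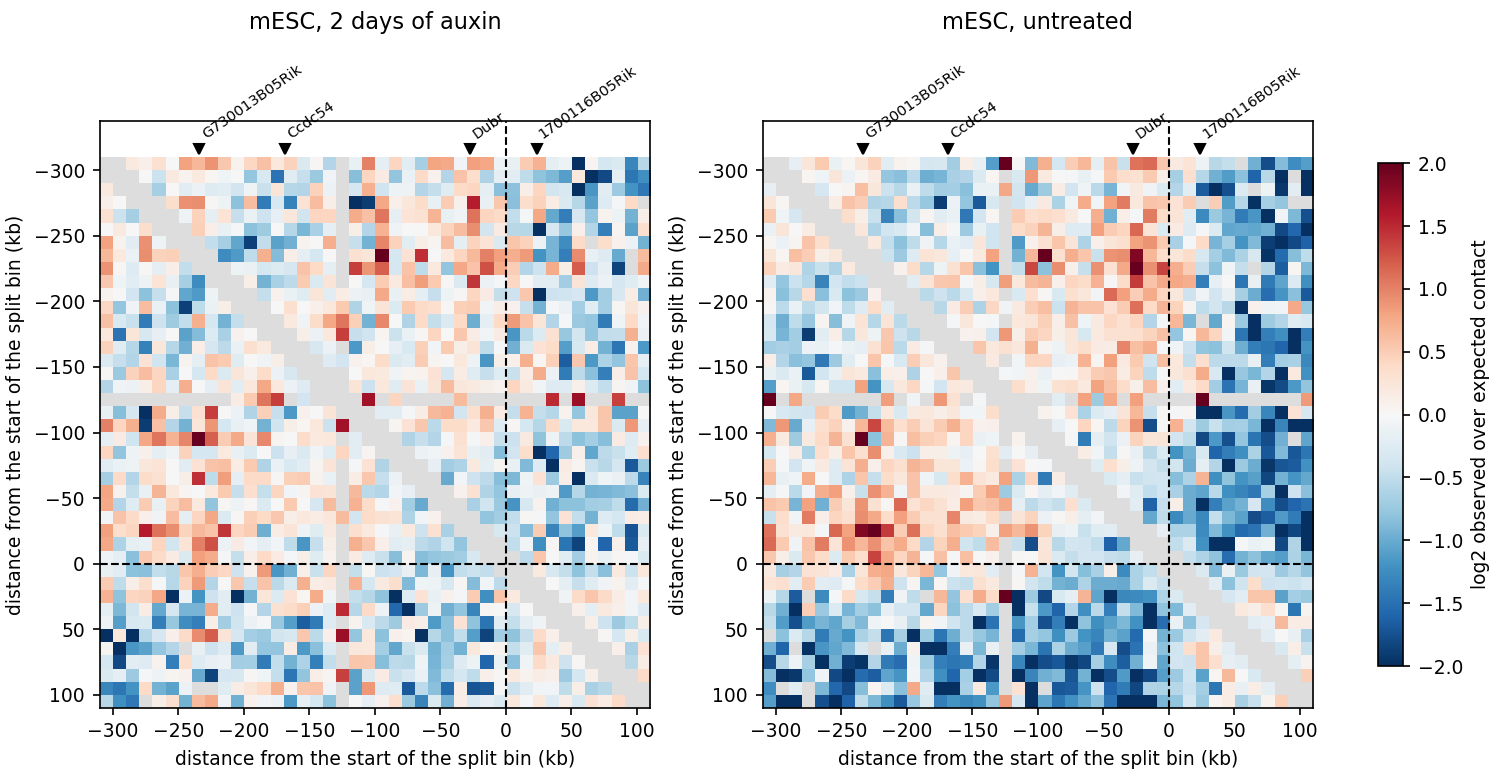
Contact of each pair of bins over its expected value (log2, colour; red above and blue below expected) in mESC after 2 days of auxin (left) and untreated mESC (right), with both axes in kb from the start of the split bin (dashed lines); triangles mark gene starts, and grey marks pairs under 20 kb apart and pairs without reads. The rectangle of pairs across the split bin is a denser blue in untreated mESC, where it averaged 0.599 of expected, than in auxin-treated mESC, where it averaged 0.826.

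The same division into 31 and 11 bins was placed at all 494 positions of the interval where it could be. Across these overlapping positions the contact between blocks had a median of 1.01 of expected in auxin-treated mESC (0.647 to 1.22) and 1.02 in untreated mESC (0.599 to 1.33). The value at the split bin in untreated mESC was the lowest of the 494, and the log2 difference of 0.46 the highest. In auxin-treated mESC, 31 positions had a lower value than the split bin. Since the split bin was picked for its difference between these same maps, its ranks here and among the insulation scores below follow in part from that choice.

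The difference across the split bin was seen in all 4 ranges of distance. For bins 20 to 50 kb apart, contact between the blocks was 0.849 of expected in auxin-treated and 0.601 in untreated mESC (log2 difference 0.50, 0.24 to 0.76). At 60 to 100 kb it was 0.775 and 0.560 (0.47), at 110 to 200 kb 0.831 and 0.580 (0.52), and at 210 to 410 kb 0.839 in auxin-treated and 0.635 in untreated mESC (0.40, 0.24 to 0.57). All 4 intervals of the difference lay above 0. Within the left block, contact relative to expected was higher at longer distances in both maps: at 20 to 50 kb it was 0.941 in auxin-treated and 0.934 in untreated mESC, and at 210 to 410 kb it was 1.24 and 1.38, with a log2 difference of -0.15 (-0.33 to 0.02). At 110 to 200 kb the left block had 1.07 of expected in auxin-treated and 1.16 in untreated mESC (-0.11, -0.23 to -0.002).

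**Figure D2:**
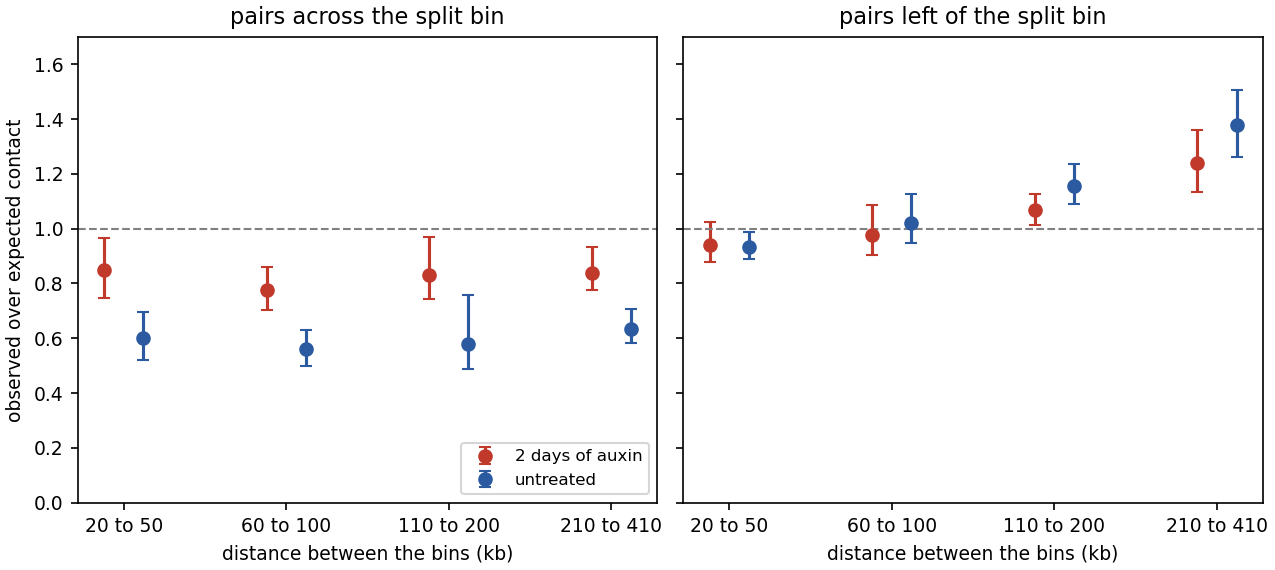
Contact over expected by distance between bins, for pairs across the split bin (left) and pairs left of it (right), in auxin-treated mESC (red) and untreated mESC (blue); bars are 95% counting intervals. Across the split bin the red points lie at 0.775 to 0.849 and the blue points at 0.560 to 0.635 at every distance, while left of it the points of both maps lie close together.

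Divided further into stretches of about 100 kb, the stretch next to the split bin (50650001 to 50760000), which holds Dubr, had the largest difference towards the right block. Its contact with the right block was 0.785 of expected in auxin-treated mESC (1631 read pairs) and 0.525 in untreated mESC (1153 read pairs), a log2 difference of 0.58 (0.45 to 0.71). The middle stretch (50550001 to 50650000), with Ccdc54, had 0.878 and 0.693 (0.34, 0.03 to 0.65), and the first stretch (50450001 to 50550000) 0.850 in auxin-treated and 0.650 in untreated mESC (0.39, 0.19 to 0.59). Contact between the first stretch and the Dubr stretch went the other way, with 1.29 of expected in auxin-treated and 1.41 in untreated mESC (-0.13, -0.26 to -0.003).

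Taken bin by bin, 10 of the 11 bins of the right block had more contact with the left block in auxin-treated than in untreated mESC, and for 9 of them the interval lay above 0. Their values ran from 0.692 to 0.950 of expected (median 0.817) in auxin-treated mESC and from 0.390 to 0.872 (median 0.509) in untreated mESC. The exception was the split bin itself, with 0.817 in auxin-treated and 0.872 in untreated mESC (log2 difference -0.09, -0.30 to 0.11). The bin starting at 50840001 differed most, with 0.870 (273 read pairs) against 0.390 (134 read pairs), a log2 difference of 1.16 (0.73 to 1.58). Of the 31 bins of the left block 30 had more contact with the right block in auxin-treated mESC, 13 of them with an interval above 0, and the exception was the bin starting at 50560001 (0.864 and 0.907). These bins share their partners and are not independent.

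The insulation score takes the contact between the stretches of a set length left and right of a bin, divides it by the average of all bins scored and gives the result as log2. With 50 and 100 kb to each side it was lowest at the split bin in untreated mESC. At the split bin with 100 kb to each side it was -0.38 in auxin-treated mESC (-0.47 to -0.28; 1351 read pairs) and -1.02 in untreated mESC (-1.13 to -0.90; 921 read pairs). The difference of 0.64 (0.49 to 0.78) was the largest of the 515 bins scored, and the untreated score the lowest of the 515, whereas 17 bins had a lower score in auxin-treated mESC. The split bin is also the last bin with a full 100 kb to its right, so this window cannot show where the low scores end. The next bins to the left, starting at 50750001 and 50740001, differed by 0.52 and 0.44. In all 4 of the 32 scored bins of the region were higher in auxin-treated mESC by at least 0.3, a limit set after the values were seen, against 3.69% of the bins of the interval. None was lower by as much, against 1.17% of the interval.

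With 50 kb to each side, which leaves 5 more scored bins to the right, the split bin had -0.34 in auxin-treated mESC (444 read pairs) and -0.95 in untreated mESC (327 read pairs), a difference of 0.61 (0.36 to 0.85). The untreated score was again the lowest, of 525 bins, but 5 bins of the interval differed by more. To the right the untreated scores climbed back. The bin starting at 50780001, that of 1700116B05Rik, had -0.38 in auxin-treated and -0.65 in untreated mESC, the bin at 50790001 -0.17 and -0.39, the bin at 50800001 -0.03 and -0.22, and the bin at 50810001 -0.05 in auxin-treated and -0.08 in untreated mESC. The low point of the untreated score therefore had scored bins with higher scores on both sides. With this window 3 of 37 bins of the region were higher by at least 0.3 in auxin-treated mESC (8% of the interval) and 1 was lower (4.76%). With 30 kb to each side the split bin had -0.18 and -0.78 (0.61, 0.25 to 0.97), 14 of 529 bins differed by more, 6 had a lower untreated score, and 6 of the 39 bins of the region were higher (11% of the interval) and 4 lower (10%).

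**Figure D3:**
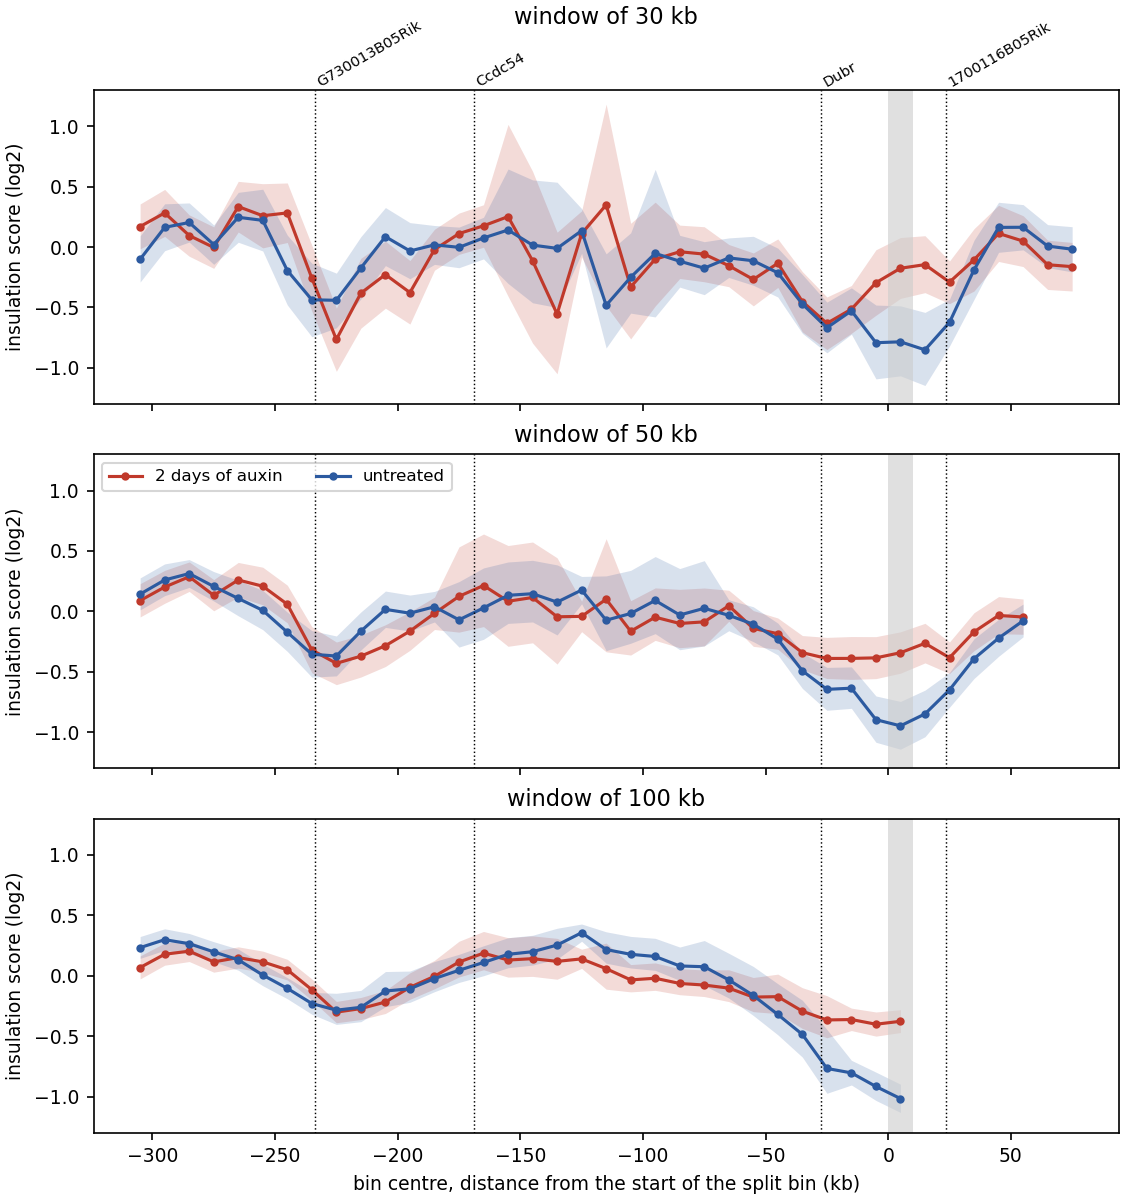
Insulation score (log2) of each bin of the region, by the distance of its centre from the start of the split bin (kb, grey band), in auxin-treated mESC (red) and untreated mESC (blue), with windows of 30, 50 and 100 kb from top to bottom; shading is the 95% counting interval and dotted lines are gene starts. The blue line drops to -0.95 at the split bin with 50 kb and climbs again to its right, the red line stays at -0.34 there, and with 100 kb the lines end at the split bin.

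Called as local minima at least 0.2 below the lower of the flanking maxima within 250 kb, the untreated map had a boundary at the split bin with the 50 kb window. Its score was the lowest of the 40 boundaries of the interval and its depth of 0.87 the second greatest. The auxin map had its nearest boundary 30 kb to the left, at the bin starting at 50730001 where Dubr starts, with a score of -0.39, a depth of 0.36 and rank 25 of 37 by depth. The untreated score at that bin was lower, at -0.65. In auxin-treated mESC the bins at 50740001 and 50750001 and the split bin had -0.39, -0.38 and -0.34. These intervals overlap that at 50730001, so the place of the auxin minimum is not resolved. With 30 kb the untreated boundary lay at 50770001 (score -0.85) and the auxin one again at 50730001 (-0.63), where untreated mESC had -0.67. Both maps shared a boundary at the bin starting at 50530001, within G730013B05Rik, with all 3 windows; with 100 kb its score was -0.30 in auxin-treated and -0.28 in untreated mESC. The difference was -0.02 with 100 kb (-0.16 to 0.13), -0.06 with 50 kb (-0.29 to 0.17) and -0.32 with 30 kb (-0.66 to 0.009), where the score was -0.77 in auxin-treated and -0.44 in untreated mESC. By depth it ranked 5 of 41 in auxin-treated and 34 of 46 in untreated mESC with 30 kb, and 8 of 37 and 18 of 40 with 50 kb. With 100 kb the ranks were close, 3 of 20 in auxin-treated and 4 of 20 in untreated mESC. The depth itself was then greater in untreated mESC, at 0.58 against 0.49.

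Some bins between these boundaries had a lower score in auxin-treated mESC. With 100 kb the bins that differed most in this direction started at 50630001 (0.14 in auxin-treated and 0.36 in untreated mESC, difference -0.22, -0.32 to -0.11), at 50650001 (-0.21) and at 50660001 (-0.18). The bin at 50630001 is sparse, as described below. A score leaves out the contacts of its own bin, so this sparse bin enters the scores at 50650001 and 50660001 but not its own. With 50 kb they were 50550001 (-0.30, -0.52 to -0.08), 50630001 (-0.22) and 50540001 (-0.21, -0.43 to 0.02). The highest score of the region with 50 kb was at the bin starting at 50470001 in both maps, 0.29 in auxin-treated and 0.31 in untreated mESC.

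The side to which a bin made its contacts within 50 kb also differed next to the split bin. The bin starting at 50790001 made 52.1% of this contact to its right in auxin-treated mESC and 65.7% in untreated mESC, and its neighbours starting at 50780001 and 50800001 made 52.0% and 48.9% in auxin-treated mESC against 63.8% and 61.3% in untreated mESC. In read pairs the bin at 50790001 had 47.7% (exact interval 41.6 to 53.9) in auxin-treated and 60.9% (54.6 to 66.8) in untreated mESC. Left of the split bin, the bin next to it, starting at 50750001, made 59.6% to its right in auxin-treated and 43.4% in untreated mESC. These 4 bins, named after their values were seen, made more of their contact on the side away from the split bin in untreated mESC. The bins starting at 50770001 (52.7% in auxin-treated and 54.8% in untreated mESC) and 50810001 (49.2% and 49.4%) differed less. The split bin itself made 56.2% to its right in auxin-treated and 50.9% in untreated mESC. Bins farther left also differed. The bin starting at 50590001, 170 kb left of the split bin, had 36.5% in auxin-treated and 55.3% in untreated mESC. The bin at 50650001 had 39.2% and 58.1%, but 65.9% and 62.5% in read pairs, and the bin at 50540001 had 51.5% and 63.8%. Differences of this size were therefore not limited to bins next to the split bin.

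The highest contact in the region relative to expected in untreated mESC linked the shared boundary in G730013B05Rik with the Dubr stretch. In the square of 3 by 3 bins from 50520001 to 50550000 and from 50730001 to 50760000, with centres 210 kb apart, contact was 1.72 of expected in auxin-treated mESC (1.36 to 2.15; 102 read pairs) and 2.54 in untreated mESC (2.08 to 3.09; 140 read pairs). The log2 difference was -0.56 (-0.98 to -0.15). This square was chosen from its values, as the highest of the 595 squares of the region in untreated mESC. It was also the highest of the 512 squares at this distance across the interval in untreated mESC (median 0.979), while in auxin-treated mESC 5 of the 512 were at least as high (median 0.983). Squares shifted by 50 kb along either side or both had 0.800 to 1.45 in auxin-treated and 0.720 to 1.31 in untreated mESC. Within the square the single pair of bins starting at 50530001 and 50730001 held 5 read pairs in auxin-treated and 19 in untreated mESC, or 1.48 and 6.05 of expected. The highest square in auxin-treated mESC lay nearer the diagonal, at 50520001 with 50650001 as its middle bins, with 1.85 against 1.53 in untreated mESC (0.28, -0.17 to 0.72).

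Read by gene, the bins of Dubr showed both patterns. Dubr had 0.799 of expected contact with the right block in auxin-treated mESC (312 read pairs) and 0.446 in untreated mESC (190 read pairs), a log2 difference of 0.84 (0.55 to 1.13). With the left block it had 1.08 in auxin-treated and 1.23 in untreated mESC (-0.19, -0.35 to -0.02). Its contact with G730013B05Rik was 1.48 in auxin-treated mESC (98 read pairs) and 2.50 in untreated mESC (158 read pairs), a log2 difference of -0.76 (-1.17 to -0.34). Some of these pairs of bins also belong to the square described above, which was chosen as the highest in untreated mESC. The lower contact in auxin-treated mESC is therefore in part the same observation, and its interval does not allow for that choice. Contact of Dubr with 1700116B05Rik, across the split bin, was 1.22 (18 read pairs) in auxin-treated and 0.411 (7 read pairs) in untreated mESC. The difference of 1.56 is known only as 0.27 to 2.85. With the whole left block 1700116B05Rik had 0.917 in auxin-treated and 0.805 in untreated mESC. That log2 difference of 0.19 had an interval that holds 0 (-0.42 to 0.80). The sparse bin starting at 50630001, described below, enters these values. Its pair with the bin of 1700116B05Rik had 4.77 of expected in untreated mESC and 0 in auxin-treated mESC. Against the right block Dubr was thus higher in auxin-treated mESC, and against G730013B05Rik lower.

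Contact with the right block was also taken for 3 other genes of the left block. Of these, Ccdc54 and 4930542D17Rik share the bin starting at 50590001, so their values are not independent. The bins of 4930542D17Rik also include the sparse bin at 50630001. 4930542D17Rik had 0.917 of expected in auxin-treated and 0.659 in untreated mESC (log2 difference 0.48, 0.07 to 0.89), Ccdc54 had 0.804 and 0.618 (0.38, 0.03 to 0.73), and G730013B05Rik had 0.923 in auxin-treated and 0.767 in untreated mESC (0.27, -0.02 to 0.55). Dubr with Ccdc54 had 1.21 in auxin-treated and 1.50 in untreated mESC (-0.31, -0.79 to 0.16). Bbx, beyond the left end, had 1.11 with the left block in auxin-treated and 1.22 in untreated mESC (-0.14, -0.21 to -0.07), and 1.02 and 1.10 with the right block (-0.12, -0.24 to 0.01). Bins of Dubr met the bins of Dppa2 and Dppa4, genes of early development that name the captured domain, in 10 read pairs in auxin-treated and 3 in untreated mESC (log2 difference 1.08, -0.82 to 2.98). For G730013B05Rik these were 8 and 16 (-1.23, -2.60 to 0.15), and for Ccdc54 4 and 10, so no difference was detectable at this depth for single genes.

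The blocks also differed in their contacts with the rest of the interval, taken in stretches of 500 kb. The strongest distant partner of the right block was the stretch from 49020001 to 49520000, with the myosin heavy chain gene Myh15, at 1.74 of expected in auxin-treated mESC and 1.97 in untreated mESC (log2 difference -0.18, -0.32 to -0.05). The left block had 1.36 and 1.35 with the same stretch (0.003, -0.10 to 0.11). With the stretch of Dppa2, Dppa4 and a part of Morc1 (48020001 to 48520000), the right block had 1.01 of expected in auxin-treated mESC (342 read pairs) and 0.687 in untreated mESC (222 read pairs), a log2 difference of 0.56 (0.22 to 0.90). The left block had 1.11 and 0.874 there (0.34, 0.06 to 0.63). Both blocks therefore had more contact with this stretch in auxin-treated mESC, with overlapping intervals of the difference.

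The stretch before it, from 47520001 to 48020000 and without a protein-coding gene, gave the right block 1.29 in auxin-treated and 0.969 in untreated mESC (0.41, 0.06 to 0.76) and the left block 0.885 and 0.712 (0.31, 0.06 to 0.57). With the stretch from Morc1 to Cip2a the left block had 1.03 in auxin-treated and 0.862 in untreated mESC (0.25, 0.12 to 0.38), and with that of Ift57, a gene of ciliary transport, and Cd47, which codes for a cell surface protein that restrains phagocytosis, 1.25 and 1.11 (0.17, 0.08 to 0.26). For the right block these were 0.975 and 0.877 with Morc1 to Cip2a (0.15, -0.22 to 0.53) and 1.28 in auxin-treated and 1.16 in untreated mESC with Ift57 and Cd47 (0.14, -0.01 to 0.29). With the nearest stretch, that of Bbx, the right block had 1.11 in auxin-treated and 1.07 in untreated mESC (0.05, -0.07 to 0.17) and the left block 1.13 and 1.16 (-0.04, -0.10 to 0.02). For the 4 stretches farthest to the left the interval of the difference spanned 0 for both blocks.

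**Figure D4:**
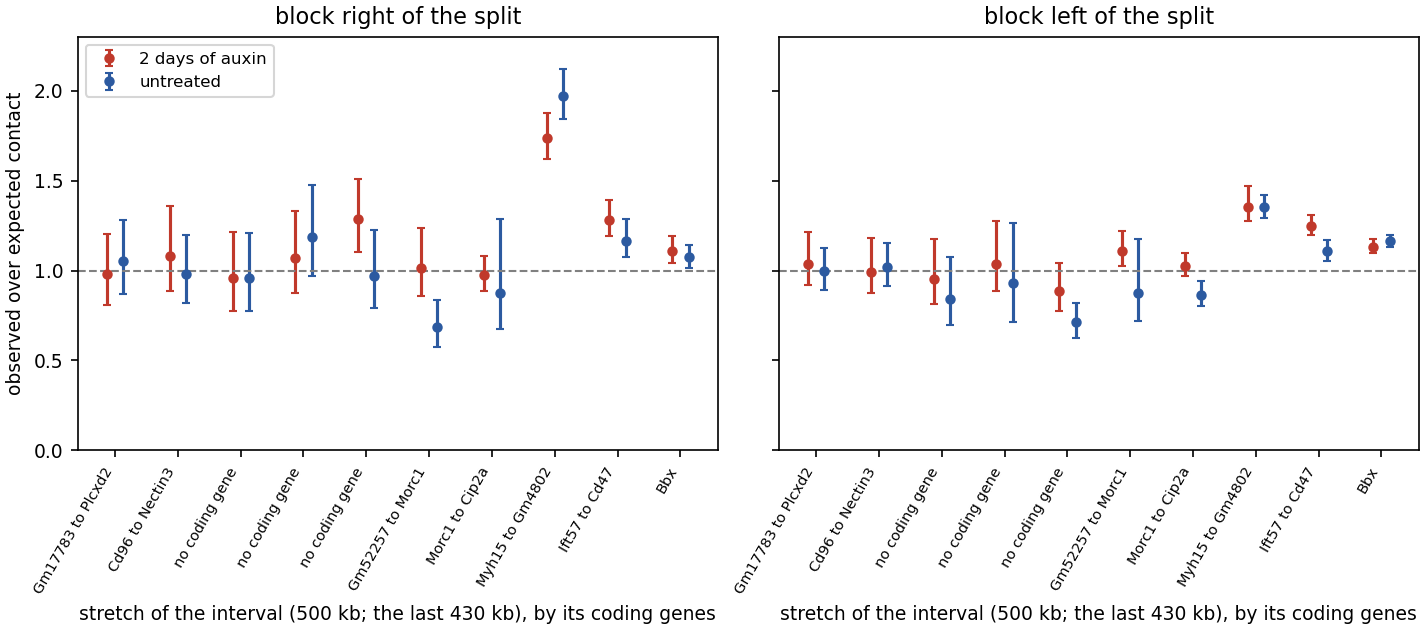
Contact of the right block (left panel) and of the left block (right panel) with stretches of the interval left of the region, named by their protein-coding genes and in order along the chromosome, over expected; red points are auxin-treated mESC, blue points untreated mESC, and bars 95% counting intervals. The right block has its highest values with Myh15 (1.74 and 1.97), and with the stretch of Dppa4, Dppa2 and Morc1 the red points lie above the blue ones in both panels.

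Since the region lies at the end of the map, the coverage of its bins is given beside these results. The last bin ended 9849 bases before the end of the captured stretch. The sum of a bin's contact values had a median of 1250 in auxin-treated and 1191 in untreated mESC over the region, against 1475 and 1424 over the interval. It was lower again in the right block, with medians of 1036 in auxin-treated and 917 in untreated mESC, and in the last bin it was 924 and 706. Relative to untreated mESC the summed values were higher in auxin-treated mESC by a log2 of 0.11 over the region, 0.19 in the right block and 0.08 in the left block, against 0.05 over the interval. In read pairs before balancing these differences were 0.013 over the region, 0.11 in the right block, -0.015 in the left block and -0.018 over the interval. Coverage of the right block thus moved in the same direction as its contact with the left block, by less; its part in the result was not tested.

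Pairs of bins without reads were few. They made up 32 of 820 in auxin-treated mESC (3.90%, exact interval 2.68 to 5.46) and 34 of 820 in untreated mESC (4.15%, 2.89 to 5.75), against 8.96% and 9.41% of the other pairs of bins at the same distances. Most involved 1 bin, starting at 50630001, with 43 read pairs in each map; without it 4 of 781 pairs were empty in auxin-treated and 9 in untreated mESC. Within the right block 0 of 45 pairs were empty in either map, which allows a share of up to 7.87%. Between the blocks 12 of 340 pairs were empty in auxin-treated (3.53%) and 18 in untreated mESC (5.29%).

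**Figure D5:**
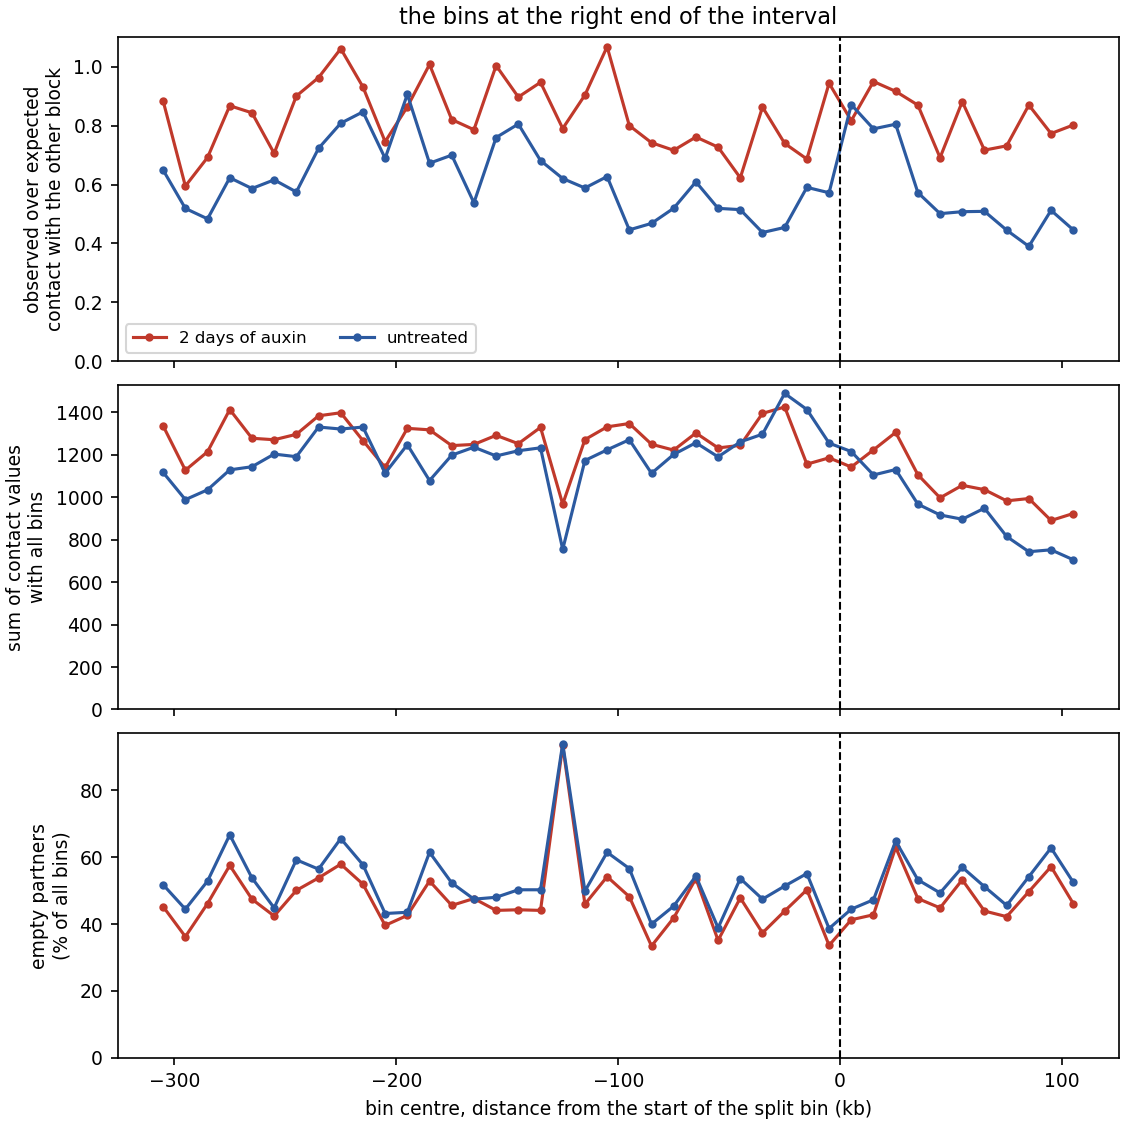
Values of each of the 42 bins by the distance of the bin centre from the start of the split bin (kb, dashed line), in auxin-treated mESC (red) and untreated mESC (blue): contact with the other block over expected (top), the sum of contact values with all bins (middle) and the share of bins with which it shares no read (bottom). The red line lies above the blue one in the top panel for 40 of the 42 bins, the sums decline towards the right end in both maps, and the sparse bin stands out in the lower panels.

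The first 42 bins of the map, at its other end, were measured in mirror image, a comparison chosen after the values of the right end were seen. At the bin that mirrors the split bin, starting at 45620001, the insulation score was -0.03 in auxin-treated and -0.09 in untreated mESC with 100 kb, a difference of 0.07 (-0.14 to 0.27), and with 50 kb the difference was 0.004 (-0.18 to 0.19). At the split bin these differences were 0.64 and 0.61. Contact between the outermost 11 bins and the next 31 was also higher in auxin-treated mESC at this other end, with 1.07 of expected against 0.838 in untreated mESC (log2 difference 0.35, 0.22 to 0.49). The first 11 bins had higher summed values in auxin-treated mESC by a log2 of 0.30, which is more than the 0.19 of the right block. The outermost bins thus had more contact with the next ones in auxin-treated mESC at both ends, while the interval of the difference in insulation score lay above 0 at the split bin and held 0 at its mirror bin.

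When both maps were balanced again, the difference between the blocks was 0.41 at the right end and 0.14 at the other end, where contact was 1.48 of expected in auxin-treated and 1.35 in untreated mESC. In read pairs without balancing the differences were 0.47 at the right end and 0.29 at the other end, and without bins under 100 read pairs 0.47 and 0.33. After balancing again, the insulation score at the split bin was 0.07 in auxin-treated and -0.56 in untreated mESC with 100 kb, and differed by 0.62 with 100 kb and 0.64 with 50 kb, and at the mirror bin by -0.21 and -0.12. Without the last 3 bins of the map the difference between the blocks was 0.37, and that of the insulation score with 100 kb was 0.55. Relative to contact within the 2 flanks of the split bin, contact across it was lower in untreated mESC: with 100 kb the flanks had 0.900 of expected and the square across 0.771 in auxin-treated mESC, against 0.897 and 0.496 in untreated mESC. With 50 kb, which uses no bin of the outermost 50 kb, the flanks had 0.833 and the square across 0.789 in auxin-treated mESC, against 0.761 and 0.519 in untreated mESC. At the other border of the region, the last bin outside it, starting at 50440001, had a sum of contact values of 1267 in auxin-treated and 1118 in untreated mESC, and the first bin inside, starting at 50450001, 1337 and 1117; their insulation scores with 100 kb were 0.06 and 0.20 outside and 0.07 and 0.23 inside.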

How the data were processed

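The deposited data are 1 contact map of mESC after 2 days of auxin and 1 of untreated mESC, each of 535 bins of 10 kb from 45520001 to 50870000 on chromosome 16. Going by the deposited names, the authors pooled replicates and balanced the maps by iterative correction; the values are a signal without unit, not scaled to depth by the authors as far as the totals show. The build mm10 and Trim Galore are named per the submitters' processing notes; the sources used here do not give the aligner, the read filters or the balancing tool. Each stated position was taken as the start of its bin.

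Each value could be written as whole read pairs multiplied by 1 factor for each of its bins. Dividing by factors estimated from the map gave whole numbers within 0.02 for 100% of nonzero values, and totals of 433895 read pairs in auxin-treated and 439849 in untreated mESC (median per bin 1532 and 1542). The 95% intervals came from these read pairs. They were gamma intervals for weighted sums, exact binomial (Clopper-Pearson) intervals for shares, and a normal approximation for log2 ratios. The same read pairs gave the stated counts, the values without balancing, the shares in read pairs and the limit of 100 read pairs per bin. Read pairs are without molecular identifiers, so intervals cover counting error only. No test between conditions was possible with 1 map each. Expected contact was the mean at each distance in the same map. The genes named were those annotated in the region, the nearest protein-coding gene on each side, Dppa2 and Dppa4, and, for distant stretches, protein-coding genes they hold; the bins named were the split bin, the highest and lowest bins and those differing most. The region, lists and measures were chosen with earlier results of these data known. The labelled samples have no map analysed here. Scripts used Python 3.11.15, numpy 2.4.6, scipy 1.17.1 and matplotlib 3.10.9 and were tested on simulated data. Alternatives were other expected values, balancing again, read pairs without balancing, other distances, windows and splits, and leaving out sparse or outermost bins.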

Additional observations from a re-analysis of the deposited data

How the results depend on the processing

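The log2 difference of contact between the blocks (0.46) had the same sign under all 9 alternatives tried, from 0.31 to 0.55. It was 0.34 with the expected contact taken from the 42 bins alone and 0.31 with the split 2 bins further left; the cause was not tested. Contact over the whole region (0.08) becomes 0 by construction when the 42 bins alone give the expected contact. Contact within the right block (0.09, with an interval that holds 0) was -0.12 when the maps were balanced again; the cause was not tested. The coverage difference of the region, 0.11 in summed contact values, was 0.013 in recovered read pairs. The insulation difference at the split bin lay between 0.55 and 0.64 with 100 kb and between 0.47 and 0.64 with 50 kb under 5 alternatives each. With 50 kb, leaving out the last 3 bins could not change the value, because that square does not reach them. All these values are differences between the maps. The level in auxin-treated mESC did depend on the balancing. Contact between the blocks was 0.826 of expected as deposited and 1.12 when balanced again, and the insulation score at the split bin with 100 kb was -0.38 and 0.07. Contact within the left and the right block of auxin-treated mESC rose as well when balanced again, to 1.16 and 1.52. The cause was not tested. No paired analysis was possible because each condition has 1 map of combined replicates, with no replicate number. Depth limits single pairs of bins (median 11 read pairs) and single genes against Dppa2 and Dppa4, and the combined replicates leave the spread between cultures unknown.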
